A study of Mus musculus with 12 samples.

Results

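The 37 genes described here are type I interferon-stimulated genes, that is, genes whose transcription rises when a cell senses interferon-alpha or interferon-beta. They were taken by name, as the rows whose gene symbol is one of 37 listed symbols. The list was chosen with earlier results of these data known. All 37 were found, 1 row each, among the 55401 genes of the tables, and all 37 were among the 44624 genes tested. They were followed in migratory dendritic cells of 3 tissues, the liver, the duodenum and the pancreas, taken from B6 mice aged 6 to 8 weeks, with 4 libraries per tissue and 2 mice pooled in each library. The sorting gate took live CD45-positive, lineage-negative cells with CD11c, high MHC class II and CD103 and without CD11b, which is the surface phenotype of type 1 conventional dendritic cells (cDC1). The groups differ by tissue, and no agent or allele is named for any of them. Polyadenylated RNA was sequenced, and the estimated counts summed to between 220.9 M and 356.1 M per library.

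Type I interferons bind the receptor IFNAR1/IFNAR2, whose kinases JAK1 and TYK2 phosphorylate STAT proteins. STAT2 and IRF9 are parts of the factor ISGF3, which binds the interferon-stimulated response element (ISRE) in the promoters of the genes described here. Their products sense viral RNA and DNA, block viral translation, entry or release, or feed back on the receptor. In dendritic cells a low level of this programme is kept up without infection.

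To show the element these genes are known for, the RefSeq promoters (GRCm38.p6, from 250 bases before to 50 after each start) were searched on both strands for an ISRE core, written as GAAA, any 2 bases and GAAA again. An entry was found for 27 members, and 16 of them (59.3%) held the core, compared with 1079 of 27025 genes (3.99%). The interferon-gamma-activated site TTCNNNGAA was in 6 of 27 members (22.2%) and in 2582 of 27025 genes (9.55%), and in Bst2 a match to it overlapped an ISRE match. Of the 8 members with an entry that changed between tissues (below), 4 held the ISRE core, as did 12 of the 19 others. The stretches below surround matches that lie before the start. They are written 5′ to 3′ along the gene's own strand, with the ISRE core, or its complement, in capitals. The first 3 belong to genes that differed between tissues, and the others to classical members that did not pass the test.

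Oas3: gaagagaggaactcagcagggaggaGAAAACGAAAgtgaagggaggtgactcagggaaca
Phf11b: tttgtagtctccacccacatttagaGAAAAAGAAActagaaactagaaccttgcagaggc
Bst2: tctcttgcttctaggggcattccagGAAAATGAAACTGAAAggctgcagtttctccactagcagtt
Isg15: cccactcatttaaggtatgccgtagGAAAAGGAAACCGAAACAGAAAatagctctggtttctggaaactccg
Ifit1: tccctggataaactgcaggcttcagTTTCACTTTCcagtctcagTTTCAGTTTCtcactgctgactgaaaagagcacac
Rsad2: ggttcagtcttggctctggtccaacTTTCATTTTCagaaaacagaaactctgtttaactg
Ifit3: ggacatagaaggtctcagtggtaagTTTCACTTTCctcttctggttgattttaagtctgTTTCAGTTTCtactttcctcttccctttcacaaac

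In GRCm38.p6 these lie at chr5:120777700-120777759 for Oas3, chr14:59341346-59341405 for Phf11b, chr8:71537562-71537627 for Bst2, chr4:156200850-156200921 for Isg15, chr12:26456538-26456597 for Rsad2 (all on the minus strand), and at chr19:34640760-34640838 for Ifit1 and chr19:34583348-34583441 for Ifit3 (plus strand). The first core began 75 bases before the start in Oas3, 50 in Phf11b and 130 in Bst2. Isg15 held 3 overlapping cores, the first of them 78 bases before its start. The stretch of Ifit3b was the same as that of Ifit3 over all 94 bases, and those of Ifi208 and Ifi213 were the same over 60 bases. These are promoter letters, and transcripts were not compared here. Several members have close relatives in the genome (the IFIT, Ifi200, Oas, Mx, Trim30 and Phf11 families), and how the counting divided reads between relatives is not known. No match of these letters was in the promoter windows of Irf7, Irf9, Ifi44, Xaf1, Samd9l, Ifit2, Isg20, Ifi35, Cmpk2, Oasl1 or Oasl2.

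The sorted cells carried all 12 cDC1 markers in every tissue (summed level 4085 to 6283 CPM over the 12 libraries, where CPM are counts scaled to a common library size). Other markers differed by tissue. The 14 B and plasma cell genes summed to 8493 to 12446 CPM in duodenum, 226 to 738 in liver and 255 to 1123 in pancreas. The 10 monocyte genes summed to 65.8 to 115 CPM in duodenum, 413 to 456 in liver and 442 to 579 in pancreas, of which Ccr2 made up the most. Acinar genes summed to 1085 to 5563 CPM in pancreas alone, against at most 16.2 elsewhere. The 13 early response genes summed to 4601 to 6360 CPM in duodenum, 682 to 838 in liver and 752 to 1405 in pancreas, and the 12 maturation genes to 291 to 491, 741 to 1164 and 1010 to 1985. The 13 macrophage genes summed to 247 to 363 CPM in duodenum, 378 to 502 in liver and 818 to 990 in pancreas, and the 12 hepatocyte genes found to 37.6 to 60.3 CPM in liver and at most 6.27 elsewhere, with 11 of 12 higher in liver than in duodenum. The B and plasma cell, monocyte, macrophage, early response and maturation sums of duodenum overlapped those of neither other tissue, and their part in the results was not tested. In bulk samples, fewer cells of a type and less RNA per cell cannot be told apart.

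Per transcript length, the members spanned a wide range of levels. In TPM, the unit that corrects for transcript length, 2 members averaged over 100, 16 lay between 10 and 100, 15 between 1 and 10, and 4 (Ifit1, Rtp4, Ifi208 and Oas2) under 1, with a median of 7.97. The most abundant was Ifi27l2a, a small hydrophobic interferon-induced protein, at 351 ± 41.2 TPM in liver, 140.4 ± 18 in duodenum and 307 ± 90.1 in pancreas (mean ± SD, n = 4 here and below). Bst2, the membrane tether that holds budding virus on the cell, stood at 109 ± 12.97, 129 ± 9.4 and 77.3 ± 14.7 TPM. Rsad2 (viperin), an antiviral enzyme, averaged 1.35 TPM over the 12 libraries.

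**Figure D1:**
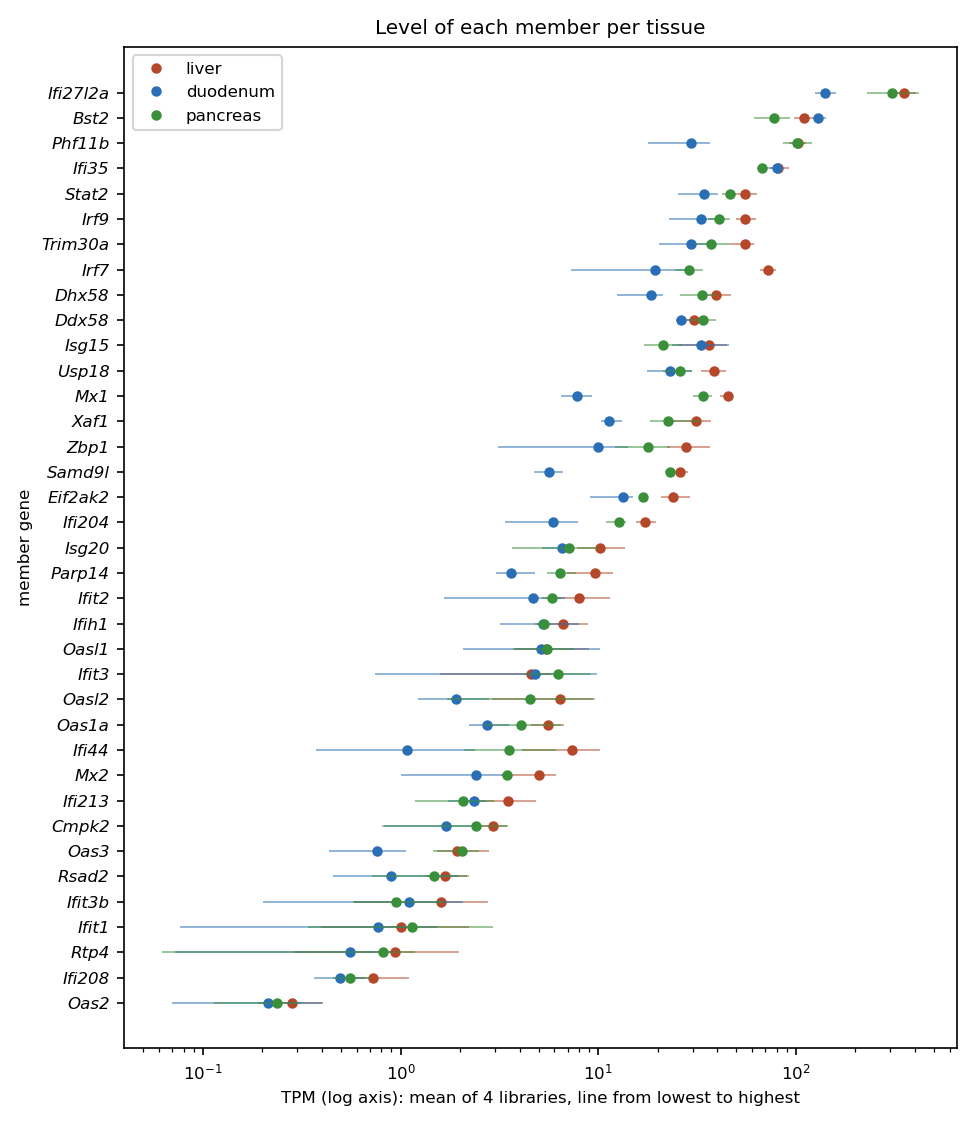
Level of each of the 37 member genes in TPM on a log axis, 1 point per tissue for the mean of 4 libraries with a line from the lowest to the highest library. The members run from under 1 TPM (Oas2) to 266 TPM on average (Ifi27l2a).

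The first comparison asked whether the programme stood at different levels in liver and duodenum. In liver, 12 of the 37 members were higher than in duodenum (32.4%) and 0 were lower, while of all genes tested 3.37% were higher and 3.95% lower. The test was edgeR's quasi-likelihood test with Benjamini-Hochberg adjustment over all 44624 genes, called at an adjusted p under 0.05. The median log2 difference of the members was 0.62, compared with 0.10 over all genes. The 12 were Mx1, Samd9l, Ifi44, Irf7, Phf11b, Ifi204, Xaf1, Parp14, Oas3, Ifi27l2a, Dhx58 and Eif2ak2. The other 25 did not pass the test, and 32 of 37 had a positive difference. The libraries within a group are separate pools of mice according to the design text.

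The second comparison set pancreas against the same 4 duodenum libraries, so the results of both share those samples. In pancreas 9 members were higher (24.3%), against 3.76% of all genes, and 1 was lower (2.70%), against 3.94%. The median log2 difference was 0.43, beside 0.09 over all genes. The 9 were Mx1, Samd9l, Phf11b, Oas3, Ifi27l2a, Ifi204, Xaf1, Dhx58 and Parp14, and the lower member was Bst2.

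**Figure D2:**
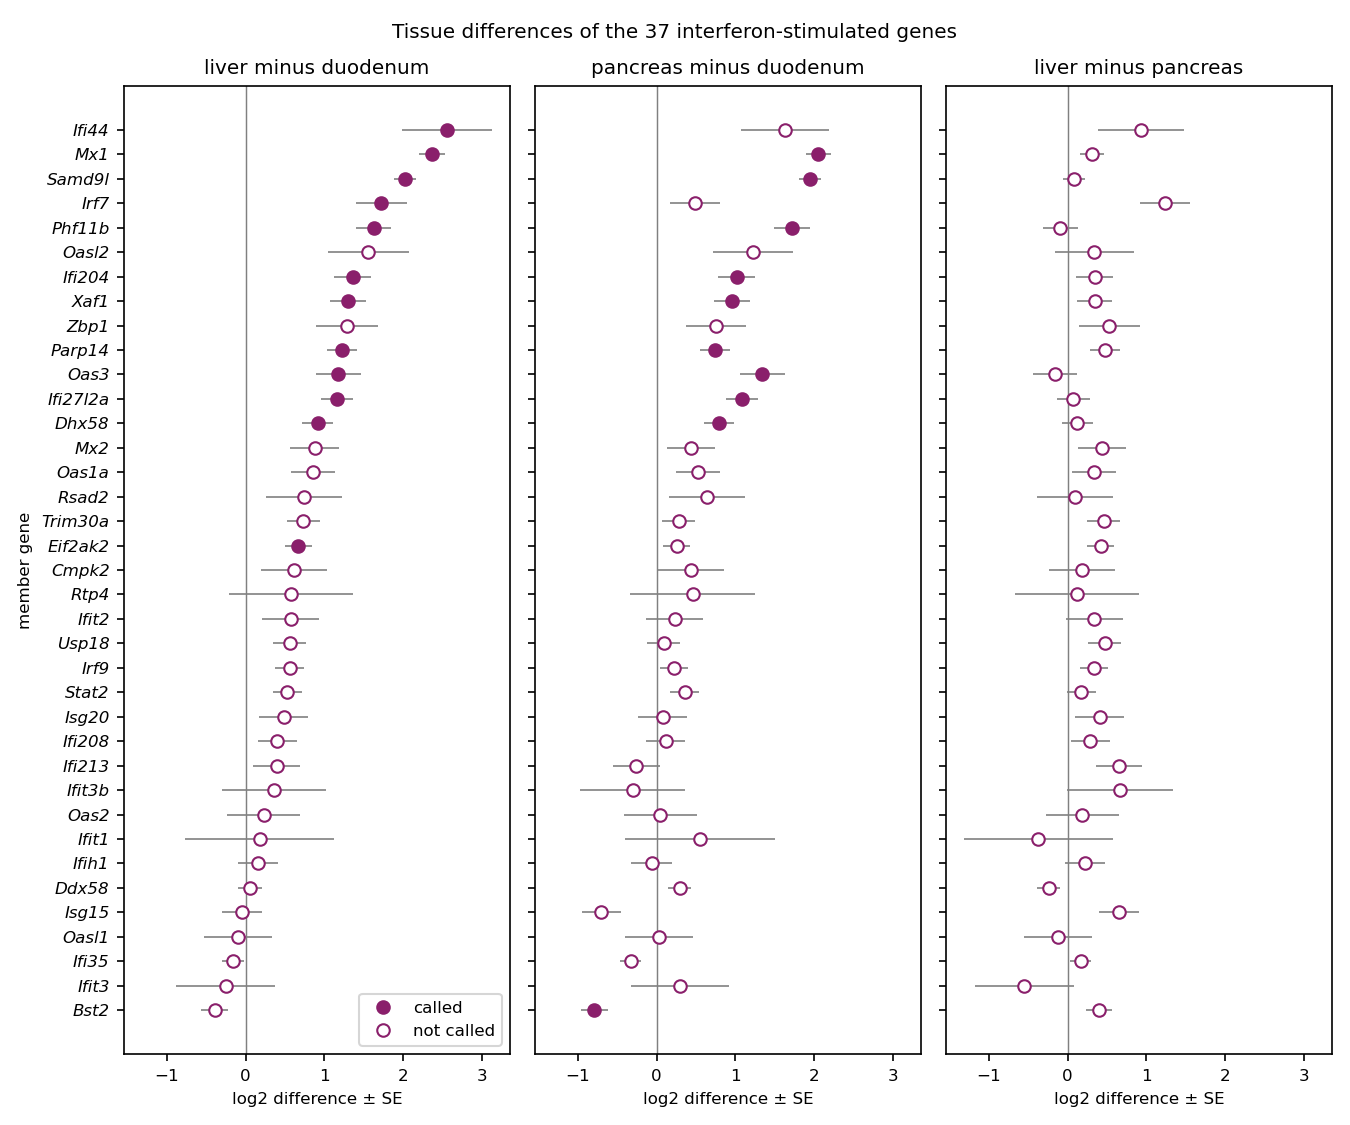
Log2 difference with its standard error for each of the 37 members in the 3 tissue comparisons, filled where the adjusted p was under 0.05. Mx1 and Samd9l stand far to the right in both comparisons with duodenum, and no point is filled for liver minus pancreas.

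Among the transcription factors, Irf7 differed and its partners did not pass the test. Irf7 (ENSMUSG00000025498), the factor that amplifies interferon-alpha transcription, stood at 125, 126, 120.2 and 106 CPM (liver replicates 1 to 4, in that order here and below), 36.2, 12.4, 56.2 and 39.8 CPM (duodenum) and 38.6, 46.9, 65.2 and 51.99 CPM (pancreas). Every liver library lay above every duodenum and pancreas library. The log2 difference was 1.72 ± 0.32 between liver and duodenum (edgeR adjusted p = 0.00421), 0.49 ± 0.32 between pancreas and duodenum (adjusted p = 0.467) and 1.23 ± 0.32 between liver and pancreas (adjusted p = 0.101). Without duodenum replicate 2 the last passed the test, with an adjusted p of 0.00151, although that library is in neither tissue compared. With only the liver and pancreas libraries in the fit, the liver minus pancreas difference also passed (log2 1.24, edgeR adjusted p = 0.00133). In all it passed under 8 of the 23 alternative settings and did not under 15.

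Irf9, the DNA-binding part of ISGF3, stood at 132, 120.4, 121 and 106 CPM (liver), 86.1, 50.96, 100.01 and 88.9 CPM (duodenum) and 96.9, 88.1, 113 and 82.1 CPM (pancreas). All 4 liver libraries lay above all 4 duodenum libraries, and the log2 difference of 0.56 ± 0.18 had an edgeR adjusted p of 0.0829. It was 0.33 without duodenum 2, and it passed under 4 of the 23 alternative settings (adjusted p 0.00209 to 0.00867). Stat2, the partner that carries the activation domain, stood at 86.2, 74.6, 85.2 and 62.05 CPM (liver), 48.4, 36.2, 62.98 and 65.5 CPM (duodenum) and 63.6, 63.1, 81.1 and 65.4 CPM (pancreas), and its tissues overlapped. Its liver minus duodenum log2 difference was 0.53 ± 0.18 (edgeR adjusted p = 0.103), or 0.32 without duodenum 2, and it passed under the same 4 settings (adjusted p 0.00241 to 0.0109).

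Of the 7 Mx, viperin and related antiviral effectors, 2 were higher than in duodenum in both other tissues, with the smallest adjusted p-values of all members. Over all genes tested, 3.37% were higher in liver and 3.76% in pancreas. Mx1 (ENSMUSG00000000386), a dynamin-like GTPase that traps viral nucleoproteins, stood at 73.03, 76.9, 72.97 and 74.1 CPM (liver), 16, 11.01, 17.3 and 13.3 CPM (duodenum) and 53.1, 61.2, 72.8 and 51.9 CPM (pancreas). No duodenum library came near the others. The transcript was 5.16-fold higher in liver than in duodenum (log2 2.37 ± 0.16, edgeR adjusted p = 8.16e-07) and 4.15-fold higher in pancreas (log2 2.05 ± 0.16, adjusted p = 1.57e-06). Most inbred laboratory mice carry an Mx1 allele that makes no working protein, so this is a transcript level and not antiviral activity.

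Samd9l (ENSMUSG00000047735), a cytosolic protein that restricts poxviruses, stood at 131, 116, 119 and 121 CPM (liver), 33.1, 23.1, 35.5 and 27.6 CPM (duodenum) and 103, 119.5, 119.8 and 118 CPM (pancreas). Liver and pancreas overlapped, and every duodenum library was far below both. The log2 difference was 2.03 ± 0.14 for liver (edgeR adjusted p = 1.01e-06) and 1.95 ± 0.14 for pancreas (adjusted p = 8.22e-07). Both genes kept these calls under all 23 alternative settings.

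Bst2 was the member that went the other way. It stood at 56.5, 58.4, 70.4 and 73.7 CPM (liver), 81.9, 86.9, 85.9 and 85.3 CPM (duodenum) and 34.8, 43.8, 64.8 and 53.5 CPM (pancreas). The 4 duodenum libraries lay above all others. The pancreas minus duodenum log2 difference was -0.79 ± 0.17 (edgeR adjusted p = 0.00924), and that of liver was -0.39 ± 0.17 (adjusted p = 0.213). Bst2 is also a surface marker of plasma cells and plasmacytoid dendritic cells. The 12 plasmacytoid genes, 11 of them above 1 CPM on average, summed to 142 to 225 CPM in duodenum, 117 to 144 in liver and 113 to 155 in pancreas, and the B and plasma cell sums are given above. Their part in the Bst2 result was not tested.

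Among the 13 sensors of viral RNA and DNA, 4 exceeded their duodenum level in liver and 3 did in pancreas. Of all genes tested, 3.37% and 3.76% did so. Dhx58 (LGP2), the RIG-I-like helicase without a signalling domain, stood at 55.1, 47.3, 43.2 and 43.7 CPM (liver), 17.1, 24.3, 28.8 and 30.1 CPM (duodenum) and 45.1, 39.1, 56.6 and 33.03 CPM (pancreas). All 4 duodenum libraries lay below the others. Its log2 difference was 0.92 ± 0.20 for liver (edgeR adjusted p = 0.00994) and 0.79 ± 0.20 for pancreas (adjusted p = 0.0216). The pancreas call was lost without duodenum 1, pancreas 1 or pancreas 3 (adjusted p 0.0634 to 0.0916), and under 7 of the 23 alternative settings in all.

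Its signalling relatives Ifih1 (MDA5) and Ddx58 (RIG-I) did not pass the test. Ddx58 varied little, at 9.84 ± 1.05 CPM (liver), 9.46 ± 0.415 CPM (duodenum) and 11.6 ± 1.51 CPM (pancreas). Ifih1 stood at 21.6 ± 5.24 CPM (liver), 19.3 ± 7.93 CPM (duodenum) and 18.5 ± 2.93 CPM (pancreas).

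Oas3, an oligoadenylate synthetase whose product activates RNase L, was low throughout, at 9.55, 5.53, 6.78 and 5.299 CPM (liver), 1.74, 2.51, 3.35 and 4.403 CPM (duodenum) and 8.39, 9.101, 7.49 and 5.43 CPM (pancreas). The duodenum libraries were the lowest. The log2 difference was 1.18 ± 0.28 for liver (edgeR adjusted p = 0.0205) and 1.34 ± 0.29 for pancreas (adjusted p = 0.00867). The liver call was lost without liver 1, liver 3, duodenum 1 or duodenum 2 (adjusted p 0.0506 to 0.0903), and under 7 of the 23 alternative settings in all. Without duodenum 2 and pancreas 1 together, the pancreas call was lost (adjusted p = 0.0610).

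Ifi204, a DNA sensor of the PYHIN family, stood at 28.9, 31.3, 27.5 and 25.8 CPM (liver), 10.7, 5.76, 12.4 and 15.3 CPM (duodenum) and 19.2, 19.4, 26.7 and 23.9 CPM (pancreas). The duodenum was lowest and overlapped neither other tissue, while liver and pancreas overlapped. Against duodenum the log2 difference was 1.36 ± 0.24 for liver (edgeR adjusted p = 0.00247) and 1.02 ± 0.24 for pancreas (adjusted p = 0.0148). The pancreas call was lost without pancreas 3 or pancreas 4 (adjusted p 0.0611 to 0.0658), and without liver 2, pancreas 3 and pancreas 4 together (adjusted p = 0.267).

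Eif2ak2 (PKR), the kinase that halts translation on double-stranded RNA, stood at 90.6, 76.7, 71.97 and 68.1 CPM (liver), 53.97, 30.3, 54.6 and 54.2 CPM (duodenum) and 54.1, 57.4, 63.95 and 54.7 CPM (pancreas). Liver was the highest tissue. The liver minus duodenum log2 difference was 0.67 ± 0.18 (edgeR adjusted p = 0.0317), a call lost on leaving out any of 9 single libraries (all 4 of liver, duodenum 1 and 4, and pancreas 1, 3 and 4, adjusted p 0.0516 to 0.159). In all it was lost under 14 of the 23 alternative settings, the DESeq2 test (0.0625) and no low-count filter (0.0557) among them, and the log2 difference was 0.44 without duodenum 2. Of the other sensors, Zbp1, which triggers necroptosis, stood at 23.4 ± 4.95 CPM (liver), 9.59 ± 4.72 CPM (duodenum) and 16.2 ± 5.75 CPM (pancreas), and its liver difference of 1.29 ± 0.39 had an edgeR adjusted p of 0.0615.

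Of 5 further members grouped as other interferon-stimulated genes (Phf11b, Ifi27l2a, Xaf1, Parp14 and Ifi44), 5 were higher in liver and 4 in pancreas. Phf11b (ENSMUSG00000091649), a PHD-finger gene, stood at 91.3, 87.6, 111 and 107 CPM (liver), 40.7, 17.8, 36 and 34.3 CPM (duodenum) and 86.1, 89.9, 139 and 109 CPM (pancreas). The duodenum did not overlap the others. Its log2 difference was 1.63 ± 0.23 for liver (edgeR adjusted p = 0.000439) and 1.72 ± 0.23 for pancreas (adjusted p = 0.000244).

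Ifi27l2a stood at 110.2, 97.96, 92.05 and 92.7 CPM (liver), 39.7, 44.2, 50.6 and 41.3 CPM (duodenum) and 61.9, 72.3, 139 and 100.5 CPM (pancreas), where replicate 3 was the highest of all 12. Its log2 difference was 1.16 ± 0.21 for liver (edgeR adjusted p = 0.00292) and 1.09 ± 0.21 for pancreas (adjusted p = 0.0041). The pancreas call was lost without the 3 liver and pancreas libraries with the most immunoglobulin RNA (liver 2, pancreas 3 and pancreas 4; adjusted p = 0.105).

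Xaf1, which promotes apoptosis, stood at 30.8, 34.6, 24.1 and 37.4 CPM (liver), 12.1, 13.98, 13.1 and 12.3 CPM (duodenum) and 17.9, 20.1, 39.5 and 22.5 CPM (pancreas). The duodenum libraries lay close together below the rest. Against duodenum the log2 difference was 1.30 ± 0.23 for liver (edgeR adjusted p = 0.00244) and 0.96 ± 0.23 for pancreas (adjusted p = 0.016), the latter lost without duodenum 1 or duodenum 4 (adjusted p 0.0516 to 0.0559). The pancreas difference was 0.62 without pancreas 3. Its call was also lost without liver 2, pancreas 3 and pancreas 4 together (log2 0.53, edgeR adjusted p = 0.235).

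Parp14, an ADP-ribosyltransferase, stood at 36.6, 43.7, 28.1 and 35.5 CPM (liver), 20.5, 11.9, 13.1 and 16.03 CPM (duodenum) and 23.6, 22.4, 26.6 and 30.8 CPM (pancreas). Liver was highest and duodenum lowest. Against duodenum the log2 difference was 1.23 ± 0.19 for liver (edgeR adjusted p = 0.00109) and 0.75 ± 0.19 for pancreas (adjusted p = 0.025). The pancreas call was lost on leaving out any of 8 single libraries (adjusted p 0.0557 to 0.128). These were liver 1 and 4, duodenum 2, 3 and 4, and pancreas 1, 3 and 4. Without liver 2, pancreas 3 and pancreas 4 together, the adjusted p for pancreas was 0.321. In all, the pancreas call was lost under 11 of the 23 alternative settings.

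Ifi44 had the largest liver difference and a wide error. It stood at 23.03, 25.2, 11.2 and 14.8 CPM (liver), 1.08, 1.12, 3.32 and 7.08 CPM (duodenum) and 8.899, 5.68, 18.3 and 6.11 CPM (pancreas). Liver lay above duodenum in every library, while pancreas overlapped both. The log2 difference was 2.56 ± 0.58 for liver (edgeR adjusted p = 0.0134) and 1.63 ± 0.56 for pancreas (adjusted p = 0.102). The liver call was lost without liver 2, pancreas 3 and pancreas 4 together (adjusted p = 0.050006).

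**Figure D3:**
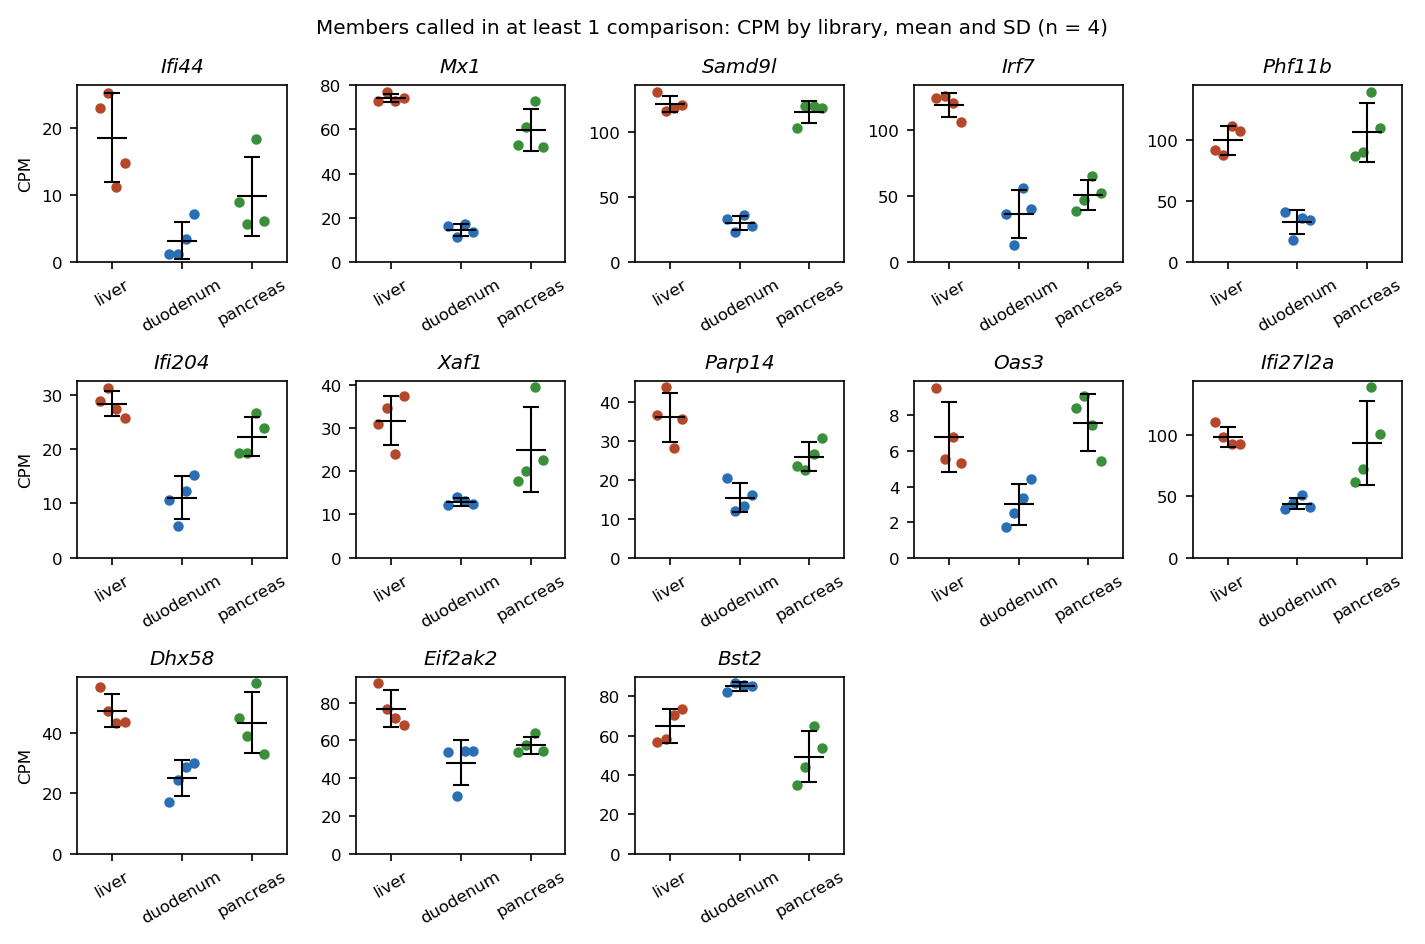
CPM of the members that differed between tissues, 1 point per library and 1 panel per gene, with each tissue's mean and SD over 4 libraries. The duodenum has the lowest mean in every panel except that of Bst2, where its 4 libraries are the highest.

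The 4 IFIT genes, whose products bind foreign RNA, gave 0 calls in any comparison, with a median liver minus duodenum log2 difference of 0.27. Ifit1 stood at 2.03, 5.196, 1.35 and 0.928 CPM (liver), 0.208, 0.346, 4.15 and 3.71 CPM (duodenum) and 1.88, 0.872, 8.32 and 1.24 CPM (pancreas). The libraries of 1 tissue differed as much as the tissues did. Ifit2 stood at 31.7, 37.99, 19.9 and 18.5 CPM (liver), 15.3, 5.86, 24.2 and 27.3 CPM (duodenum) and 19.7, 20.9, 25.9 and 18.7 CPM (pancreas).

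Isg15, the ubiquitin-like modifier, stood at 12.6, 21, 17.5 and 22.2 CPM (liver), 13.7, 15.2, 26.3 and 20.5 CPM (duodenum) and 8.32, 12.3, 15.9 and 10.03 CPM (pancreas), and the 3 tissues overlapped. Its log2 difference was -0.05 ± 0.25 for liver (edgeR adjusted p = 0.96) and -0.70 ± 0.25 for pancreas (adjusted p = 0.123). Usp18, which removes Isg15 and blocks the receptor, stood at 52.8 ± 4.46 CPM (liver), 35.7 ± 10.9 CPM (duodenum) and 38.1 ± 8.65 CPM (pancreas) (liver minus duodenum adjusted p = 0.137 in edgeR). Rsad2 stood at 4.71 ± 0.995 CPM (liver), 2.82 ± 2.34 CPM (duodenum) and 4.399 ± 2.501 CPM (pancreas).

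Further members that passed no test were mostly low. Oasl2, an oligoadenylate synthetase-like protein, averaged 9.74 CPM (liver), 3.305 CPM (duodenum) and 7.72 CPM (pancreas), with an edgeR adjusted p of 0.0877 between liver and duodenum. Oas1a averaged 9.17, 5.06 and 7.28 CPM (adjusted p = 0.083), and Mx2 9.47, 5.16 and 6.97 CPM (adjusted p = 0.112). Liver had the highest mean and duodenum the lowest for each of these. Ifi35 was more abundant, at 87.3 ± 7.22 CPM (liver), 97.6 ± 12.1 CPM (duodenum) and 77.8 ± 11.5 CPM (pancreas), with the highest mean in duodenum. Oasl1, Cmpk2, Isg20, Ifit3, Ifit3b, Ifi208, Ifi213, Rtp4 and Oas2 had tissue means under 12 CPM.

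The IFIT genes were among the members that varied most within a tissue. The SD of log2(CPM + 0.5) within tissues was highest for Ifit1 (1.20), Ifit3 (1.07) and Ifit3b (0.92), and lowest for Ddx58 (0.14), Ifi35 (0.17), Samd9l (0.18) and Mx1 (0.21). Its median was 0.318 over the 13 called members and 0.443 over the 24 others, whose median levels were 21.7 and 5.28 TPM. A smaller spread makes a call easier, so this is a description of which members could be called. Trim30a came closest to the threshold: its 4 liver libraries lay above all duodenum libraries, at 174 ± 21.1 against 105 ± 27.9 CPM (log2 0.74 ± 0.21, edgeR adjusted p = 0.0502).

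Between liver and pancreas, no member passed the test in either direction in edgeR, where 0.426% of all genes were higher and 0.681% lower in liver. At an unadjusted p under 0.05 there were 8 of 37, beside 9.01% of all genes (Bst2, Eif2ak2, Ifi213, Irf7, Isg15, Parp14, Trim30a and Usp18). DESeq2 called 1 as higher in liver, Irf7, beside 1.58% of all genes it gave an adjusted p. With limma on log2(TPM + 1) there were 2, Bst2 and Irf7, beside 3.1% of all genes. The median log2 difference was 0.33, beside 0.01 over all genes.

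Single libraries bore on the size of these differences. Pancreas 3 was the highest of its tissue in 30 of 37 members (81.1%, compared with 27.7% of all genes tested), and duodenum 2 the lowest in 22 (59.5%, compared with 27.1%). Pancreas 1 was the lowest of its tissue in 19 (51.4%, compared with 25.2%) and the highest in 0. Duodenum 2 and pancreas 1 also had the lowest cDC1 marker sums of their tissues, 4085 and 4535 CPM. Pancreas 3 had the highest cDC1 sum of its tissue, 5973 CPM. Its maturation gene sum was 1985 CPM, against 1010 to 1108 CPM in the other pancreas libraries. The part of these sums in the results was not tested. The member sums of duodenum and pancreas overlapped. The members summed to 1512 ± 68.8 CPM in liver, 864 ± 182 in duodenum (622 to 1039) and 1220 ± 233 in pancreas (1026 to 1557). Without duodenum 2, the members' median fell to 0.44 in liver and 0.14 in pancreas, where it equalled the 0.14 of all genes, with 12 and 8 members higher and 2 (Bst2 and Ifi35) lower in pancreas. Without pancreas 3, 13 and 6 members were higher, and the pancreas median was 0.22. Without liver 2, pancreas 3 and pancreas 4 together, the counts were 9 and 4 (Mx1, Oas3, Phf11b and Samd9l in pancreas), with a pancreas median of 0.17. The share of all genes called with libraries left out is not given here. The changes in these counts are therefore not read as a result about the members. Mx1, Samd9l and Phf11b kept their calls in both comparisons under each of these settings.

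**Figure D4:**
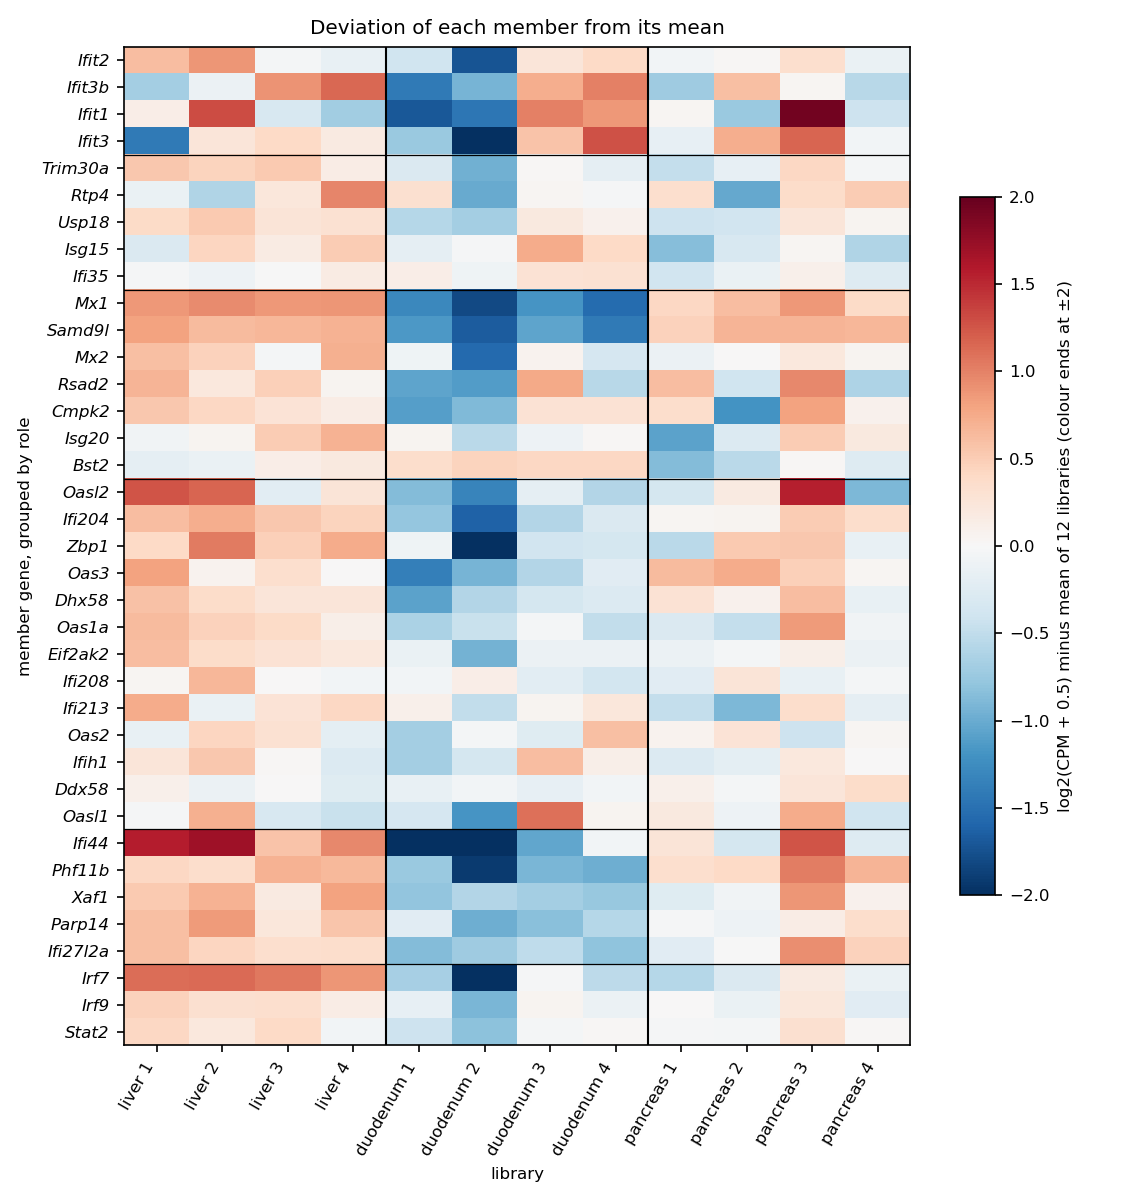
Deviation of log2(CPM + 0.5) from each member's mean over the 12 libraries, members in rows by role and libraries in columns, with the colour ends at ±2. Duodenum 2 is the lowest duodenum library in 22 of 37 rows, pancreas 3 is the highest pancreas library in 30 of 37, and liver is above the mean in most.

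The interferons themselves were low. Of 21 interferon ligand genes 19 could be tested, 0 passed in any comparison, and their summed level was 1.42 to 2.76 CPM over the 12 libraries. Ifnb1 averaged 0.0291 CPM (liver), 0.0189 CPM (duodenum) and 0.0577 CPM (pancreas).

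Among 14 receptor and JAK-STAT genes, 3 were higher in liver than in duodenum (21.4%, against 3.37% of all genes tested) and 1 was lower (7.14%, against 3.95%). The median log2 difference was 0.07. In pancreas 2 were higher than in duodenum (14.3%, against 3.76%) and 2 lower (14.3%, against 3.94%), with a median of -0.01. Ifnar1 stood at 97.5 ± 8.77 CPM (liver), 93.01 ± 18.3 CPM (duodenum) and 100.5 ± 11.3 CPM (pancreas). Ifnar2, the other receptor chain, stood at 76.8 ± 7.42 CPM (liver), 51.9 ± 6.64 CPM (duodenum) and 70.1 ± 9.04 CPM (pancreas), with a liver minus duodenum log2 difference of 0.57 ± 0.14 (edgeR adjusted p = 0.0209). That call was lost without any 1 of liver 1, 2 or 3, duodenum 1 or pancreas 4 (adjusted p 0.0516 to 0.115). Ifnlr1, the receptor of type III interferons, whose response uses the same factor ISGF3, was higher in liver (log2 1.89 ± 0.38, edgeR adjusted p = 0.00652) and in pancreas (log2 1.66 ± 0.38, adjusted p = 0.0129) than in duodenum. The Ifnlr1 pancreas call was lost without liver 2, pancreas 3 and pancreas 4 together (adjusted p = 0.133). It was also lost without duodenum 2 and pancreas 1 together (0.0719).

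Socs3, a feedback inhibitor of cytokine receptors, was lower than in duodenum in liver (log2 -1.69 ± 0.30, edgeR adjusted p = 0.00278) and in pancreas (log2 -1.16 ± 0.30, adjusted p = 0.0249), the latter lost without any 1 of duodenum 1 or 3 or pancreas 1, 2 or 4 (adjusted p 0.0537 to 0.0764). Socs1, which inhibits the JAK kinases, was lower in pancreas than in duodenum (log2 -1.03 ± 0.25, adjusted p = 0.017, or 0.0581 without pancreas 2) and than in liver (liver minus pancreas log2 1.20 ± 0.25, adjusted p = 0.0271, lost without any 1 of liver 1, 2 or 4 or pancreas 1, 2 or 4, 0.0583 to 0.0957). The kinase Tyk2 was higher in pancreas than in duodenum (log2 0.56 ± 0.12, edgeR adjusted p = 0.00835, or 0.0521 without pancreas 3). The Tyk2 call was also lost without liver 2, pancreas 3 and pancreas 4 together (adjusted p = 0.201).

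Of 20 genes that lead to interferon production, 3 exceeded their duodenum level in liver (15%, against 3.37% of all genes tested). In liver 1 fell below it (5%, against 3.95%). In pancreas 1 exceeded it (5%, against 3.76%) and 2 fell below (10%, against 3.94%). Cgas, the cytosolic DNA sensor, stood at 25.02 ± 7.12 CPM (liver), 12.8 ± 1.97 CPM (duodenum) and 36.6 ± 6.36 CPM (pancreas). Its log2 difference was 0.96 ± 0.20 for liver (edgeR adjusted p = 0.00951) and 1.51 ± 0.21 for pancreas (adjusted p = 0.000327). Without liver 2, pancreas 3 and pancreas 4 together, the liver call was lost (adjusted p = 0.0840). Trim25, the ubiquitin ligase that acts on RIG-I, ran the other way, at 38.7 ± 7.57 CPM (liver), 112 ± 22.2 CPM (duodenum) and 76.1 ± 19.9 CPM (pancreas) (liver minus duodenum log2 -1.53 ± 0.21, edgeR adjusted p = 0.000329, and liver minus pancreas log2 -0.97 ± 0.20, adjusted p = 0.0319, the latter lost without any 1 of liver 2, 3 or 4 or pancreas 1, 3 or 4, 0.0614 to 0.114). Tlr9, the endosomal DNA receptor, was higher in liver than in duodenum (log2 0.88 ± 0.18, edgeR adjusted p = 0.00825, or 0.0556 without the same libraries). So was Irf3 (log2 0.42 ± 0.12), whose adjusted p of 0.0485 became 0.0632 to 0.231 on leaving out any 1 of the 12 libraries. For Tlr9 the libraries left out were liver 2, pancreas 3 and pancreas 4. Without them, the liver minus pancreas log2 difference of Trim25 was -0.60 (edgeR adjusted p = 0.698). Irf1 was lowest in pancreas, at 65.5 ± 17.8 CPM against 129 ± 4.23 in liver and 107 ± 16.5 in duodenum (liver minus pancreas log2 0.98 ± 0.17, edgeR adjusted p = 0.00957). Its pancreas minus duodenum log2 difference was -0.70 ± 0.17 (adjusted p = 0.019, 0.0675 and 0.0695 at the extremes without duodenum 1 or pancreas 2), and that of Tlr3, the endosomal RNA receptor, was -0.57 ± 0.14 (adjusted p = 0.0233, lost without any 1 of duodenum 1, 3 or 4 or pancreas 2 or 4, 0.0540 to 0.0809).

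The 18 interferon-gamma-inducible GTPases, which attack the vacuoles of intracellular microbes, were counted beside the members. Of these, 8 were higher in liver than in duodenum (44.4%, against 3.37% of all genes tested) and 0 lower (against 3.95%). The median log2 difference was 1.53. In pancreas 1 was higher than in duodenum (5.56%, against 3.76%) and 1 lower (5.56%, against 3.94%), with a median of 0.10. These pancreas counts were near the share of all genes. Higher in liver than in pancreas were 5 (27.8%, against 0.426%), with a median of 1.22. Over the same comparisons the 37 members had 12, 9 and 0 higher, with medians of 0.62, 0.43 and 0.33. The difference between the lists was not tested. Iigp1 had a log2 difference of 2.64 ± 0.33 between liver and duodenum (edgeR adjusted p = 0.000174) and of 2.03 ± 0.32 between liver and pancreas (adjusted p = 0.00493). Gbp4 had 2.04 ± 0.25 and 1.48 ± 0.25, and Gbp5 1.66 ± 0.25 and 1.37 ± 0.25, in the same comparisons. Gbp9 (2.28 ± 0.42) and Gbp8 (2.10 ± 0.60) were higher in liver than in duodenum, the latter with an adjusted p of 0.0491 that was kept only without duodenum 2 or duodenum 4 when single libraries were left out. Tgtp1 (2.62 ± 0.45) and Tgtp2 (2.07 ± 0.37), near-identical copies, were higher in liver than in pancreas. Both were also among the 8 higher in liver than in duodenum, calls each lost under 9 of the 23 alternative settings. Without liver 2, pancreas 3 and pancreas 4 together, the liver minus pancreas calls of Tgtp2 (edgeR adjusted p = 0.158) and Gbp5 (0.103) were lost. In pancreas relative to duodenum, Gvin1 was higher (0.94 ± 0.15, edgeR adjusted p = 0.00102) and Gbp7 lower (-1.37 ± 0.37, adjusted p = 0.0367, lost without any 1 of duodenum 3 or 4 or pancreas 1, 2 or 3, 0.0739 to 0.134).

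**Figure D5:**
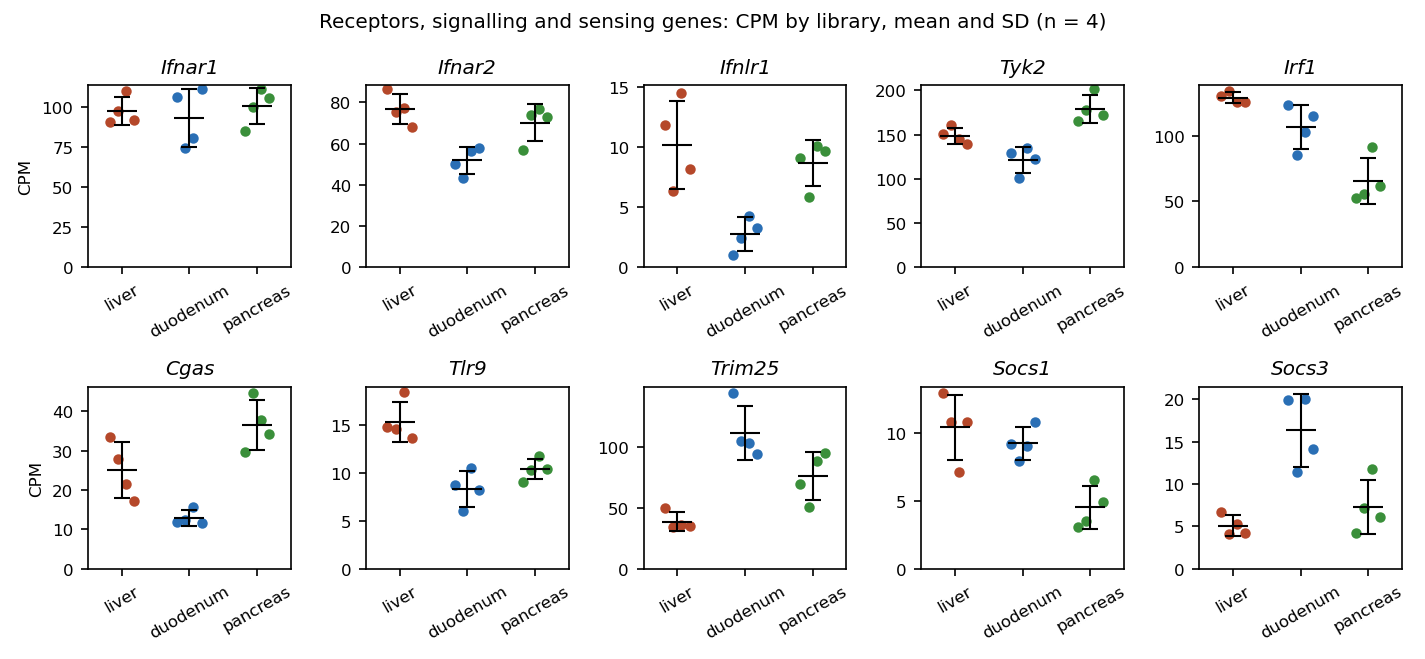
CPM of genes that carry the interferon signal and are not members, 1 point per library and 1 panel per gene, with each tissue's mean and SD over 4 libraries. Trim25 has its highest mean in duodenum, and Ifnar1 overlaps between all 3 tissues.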

How the data were processed

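RNA of 12 libraries was quantified by the authors with kallisto against GRCm39, per the submitters' processing notes; the kallisto version, the annotation release and whether the libraries kept strand are not given here. Estimated counts and TPM per gene are the values the authors deposited. For 12632 genes above 1 TPM in every library, the deposited count divided by TPM equalled a gene term times a library term to within 1.06e-09 log2, so the counts carry the TPM values on another scale. Members were matched by symbol in the TPM table and by its Ensembl identifier in the count table.

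Estimated counts were rounded and tested in R 4.3.3 with edgeR 4.0.16 (TMM normalization, filterByExpr with a minimum count of 10, robust quasi-likelihood fit over all 12 libraries with tissue as the term), with Benjamini-Hochberg adjustment over 44624 genes. The filter's model had no covariate. Standard errors are the log2 difference divided by the square root of F. CPM use TMM library sizes. Differences between log2 values are first tissue minus second. The fit was tested on simulated data.

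Every member is accounted for. Members that passed a test and the 3 transcription factors have their value in every library. Of the pathway lists, the called genes with the largest differences are named, up to 5 per list and comparison, and Ifnb1, Ifnar1, Ifnar2, Stat2 and Irf9 in any case; 1 gene that this rule names is not reported here. Values for Ifit1, Ifit2 and Isg15 by library were added after the values were seen. The members, the marker and pathway lists and the tests were chosen with earlier results of these data known. Alternatives covered normalization, filters, DESeq2 1.42.0, limma 3.58.1 on log2(TPM + 1) and log2(TPM + 0.1), the samples in the fit, a replicate block and left-out libraries. Promoters are RefSeq's for GRCm38.p6, another build than that of the files, and were matched by symbol. No sequencing batch is named in the labels.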

Additional observations from a re-analysis of the deposited data

Results flagged for a closer look

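In 180 groups of 4 libraries (60 genes in 3 tissues), 9 held 1 library far from the other 3 by Dixon's criterion, and chance alone gives about 1 in 20 groups, or 9. Eif2ak2 stood at 30.3 CPM in duodenum 2 and at 54.0 to 54.6 in the others. Ifit1 stood at 8.32 CPM in pancreas 3 against 0.872 to 1.88, and Stat2 at 81.1 CPM there against 63.1 to 65.4. Samd9l stood at 102.7 CPM in pancreas 1 against 118 to 120 (rounded), still above all duodenum libraries. Ifi208 stood at 2.91 CPM in liver 2 against 1.56 to 1.69. Outside the members, Cgas stood at 15.8 CPM in duodenum 3 against 11.6 to 12.3, and Trim25 at 50.1 CPM in liver 1 against 34.4 to 35.6. Tgtp1 stood at 20.7 CPM in pancreas 3 against 5.34 to 7.87, and Tgtp2 at 11.8 CPM in duodenum 2 against 33.4 to 35.7.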

How the results depend on the processing

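Of the 22 calls of members, 13 held under all 23 alternatives and 9 were lost under at least 1. The number of members higher in liver than in duodenum was 12, and it was 20 with library totals only, with limma on log2(TPM + 1), with limma on log2(TPM + 0.1) and with at least 1 CPM in 4 libraries. It ranged from 10 to 13 on leaving out each library. The limma settings tested 34 members among 18077 genes, and the filter at 1 CPM tested 35 among 18279. The share of all genes called against duodenum under the alternatives is not given here. A change in these counts is therefore not read as a result about the members. Library totals moved the median log2 difference of all genes from 0.10 to 0.25 (liver) and from 0.09 to 0.17 (pancreas), and the members' medians then were 0.81 and 0.55. The number higher in pancreas than in duodenum was 9, and 4 without liver 2, pancreas 3 and pancreas 4, with a range of 6 to 9 on leaving out each library and up to 12 with either limma setting. The number lower in pancreas was 1, and 2 with the DESeq2 test (Bst2 and Isg15) and 3 with at least 1 CPM in 4 libraries (Bst2, Ifi35 and Isg15), with a range of 1 to 2 on leaving out each library. The number higher in liver than in pancreas was 0. It was 1 with library totals only, the DESeq2 test, at least 1 CPM in 4 libraries, only the tissues compared, and without duodenum 2 and pancreas 1 together, and 2 with either limma setting, with a range of 0 to 1 on leaving out each library. The pancreas minus duodenum log2 difference of Irf9 was 0.22 as reported, ranged from -0.0080 (without duodenum 2) to 0.34 on leaving out each library, and was -0.024 without duodenum 2 and pancreas 1. The cause of these changes was not tested.

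With the replicate number as a block, the counts against duodenum were 12 higher for liver, and 9 higher and 1 lower for pancreas, and 0 differed between liver and pancreas. The 12 were not the same genes: Oas3 was lost (adjusted p = 0.0609) and Trim30a gained. Outside the members, calls of Gbp7, Irf3, Socs1, Tgtp1 and Tgtp2 were lost (0.0614 to 0.0802, 1 comparison each). Over all genes tested, the deviations of same-numbered libraries were hardly correlated (r from -0.04 to 0.09, 0 of 12 pairs over 0.1). Many of these genes have low counts, so this cannot decide whether same-numbered libraries came from the same mice.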
